A study of Mus musculus with 16 samples.

Results

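The subject is the set of genes for synaptic vesicles and for exocytosis, the fusion of vesicles with the plasma membrane, in embryonic sensory ganglia of the mouse. Members were found by symbol: the synaptotagmins (Syt), syntaxins (Stx), vesicle-associated membrane proteins (Vamp), the SNAP25 family with Snap91, the synapsins (Syn), complexins (Cplx), Rab3 GTPases, Rims and Sv2 proteins. This gave 62 of the 24421 gene symbols in the count table, of which 57 had enough counts to be tested among 15641 genes. Lumbar dorsal root ganglia (DRG), which hold the cell bodies of the sensory neurons of trunk and hindlimb, were taken from C57BL/6 embryos at embryonic day 13.5 and their polyadenylated RNA was sequenced. The 16 libraries form 4 groups of 4. KO_alpha3 lacked importin α3 (gene Kpna4) and WT_alpha3 are the wild types labelled with that line. KO_beta lacked the 3′ UTR of importin β1 (gene Kpnb1) and WT_beta are the wild types labelled with that second line. Both importins carry cargo proteins into the nucleus. The labels name no cell-type restriction for either deletion, and do not say that each library came from a separate embryo, so p-values measure the spread between these samples, which may be technical. Values of a group are listed in the order of the library numbers: 42, 50, 75 and 81 for KO_alpha3, 45, 54, 55 and 79 for WT_alpha3, 398, 402, 406 and 411 for KO_beta, and 399, 401, 410 and 415 for WT_beta.

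A vesicle fuses when a Vamp protein on the vesicle zips up with a syntaxin and a SNAP25-type protein on the target membrane into a SNARE bundle. Synaptotagmins sense calcium and trigger that step, complexins clamp and assist it, Rab3 and Rim proteins hold the vesicle at the release site, and synapsins and Sv2 proteins sit on the vesicle. Growing axons use much of the same machinery to add membrane before synapses mature, while Golgi and endosome syntaxins serve membrane traffic in every cell. In a bulk sample, fewer cells of a type and less RNA per cell cannot be told apart.

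The libraries held 19682595 to 26873361 counts. Kpna4 had 14 to 27 counts per KO_alpha3 library (0.870 ± 0.241 CPM, SD, n = 4), against 76.6 ± 5.16 CPM (SD, n = 8) across wild types, where CPM is the count scaled to a common library size with TMM factors. The labels of KO_beta, where the deleted part is the 3′ UTR, were not checked with counts per gene. Y-linked genes summed to 133 to 146 CPM in KO_alpha3 50 and 75, 104 to 127 CPM in WT_alpha3 and 131 to 141 CPM in KO_beta. They summed to 0.326 CPM or less in KO_alpha3 42 and 81 and to 0 to 1.141 CPM in WT_beta. All 23 sensory neuron markers in the table were tested, and Tubb3, Elavl4, Isl1 and Pou4f1 were expressed in every library, as the tissue label says. The libraries also differed in the ratio of Hbb-bh1 to Hbb-y, 2 β-like globins of primitive red cells of which Hbb-bh1 is the earlier in mouse. Its log2 was -5.10, -6.81, -6.03 and -3.71 in KO_alpha3, -4.79, -6.93, -6.71 and -4.10 in WT_alpha3, -6.06, -6.35, -6.45 and -7.00 in KO_beta and -5.17, -6.04, -6.89 and -6.63 in WT_beta. A higher ratio is the less mature end of this globin switch. KO_alpha3 81 and WT_alpha3 79 stood at that end, and the spread was wider within the α3 line than within the β1 line.

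Promoters show the sequences around which these genes begin. RefSeq promoters of build GRCm38.p6, which run from 250 bases before to 50 bases after the start, were matched to 47 of the 62 members (63 promoters) and searched on both strands for 5 motifs. Stretches of 30 bases are given for 5 members whose level moved with the globin ratio, with the motif in capitals. The first is the left part of the RE1 element (TCAGCAC), which the silencer REST reads in non-neuronal cells, in Syn1 at chrX:20921131-20921160, minus strand. The next pair, in Syn1 (chrX:20921059-20921088, minus strand) and Rab3a (chr8:70754702-70754731, plus strand), hold letters of the cyclic AMP response element (TGACGTC, in reverse complement in Rab3a). The last 3 hold the Sp1 box (GGGCGG, in reverse complement in Cplx1), in Stx1a (chr5:135023396-135023425, plus strand), Syt1 (chr10:109010969-109010998, minus strand) and Cplx1 (chr5:108550021-108550050, minus strand).
Syn1, RE1 left part: cactgtcggatTCAGCACcgcggtcagagc
Syn1, cyclic AMP element: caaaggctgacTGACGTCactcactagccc
Rab3a, cyclic AMP element: tggctttgcagGACGTCAgctaggactgca
Stx1a, Sp1 box: aggcggagccctGGGCGGgatatatccggg
Syt1, Sp1 box: ccgggagatgatGGGCGGccgcctcctcac
Cplx1, Sp1 box: ctccgccgagccCCGCCCtcctcgtcatgc
The Sp1 box was in 41 of the 63 member promoters (65.1%), against 35.7% of the 32851 promoters of the table. The left RE1 part was in 3.17% of member promoters and 5.12% of all, and was found in Syn1 and Syt8. The right RE1 part (GGACAGC) was in 6.35% of member promoters and 6.56% of all, in Stx5a and Syt6. TGACGTC was in 3.17% and 3.21%, and TATAAA, the TATA box, in 7.94% and 13.6%. TGACGTC overlaps its own reverse complement by all but 1 letter. The Syn1 site reads TGACGTCA, which holds both, so it was matched on both strands. A match describes these letters only.

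Most of the machinery was already transcribed at this stage. Of the 62 members, 20 averaged at least 100 CPM over the 16 libraries, 29 lay between 10 and 100 CPM, and 8 of the tested members lay under 10 CPM. Levels between genes were compared per kilobase of annotated exon, with positions and lengths from GENCODE M21 on GRCm38 (mm10) for 61 members. On that scale the highest were Syt11 (112 ± 21.8 CPM per kilobase, SD, n = 16), Vamp2 (107 ± 20.6), Rab3a (105 ± 20.3), Syt13 (101 ± 19.8) and Snap47 (91.3 ± 16.6), which differed by less than 1 SD between neighbours in this order. Syt11 (chromosome 3, 88744700 to 88775164) is a synaptotagmin that does not bind calcium, and Vamp2 (chromosome 11, 69088490 to 69092384) is the main vesicle SNARE of neurons. Rab3a (chromosome 8, 70754679 to 70758677) is the main Rab3 of synaptic vesicles. Cplx1 (74.8 ± 27.3), Syn1 (64.4 ± 21.0), Stx1a (54.3 ± 15.7) and Cplx2 (48.4 ± 7.69 CPM per kilobase) followed.

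Levels within families were uneven. Among the calcium sensors, Syt5 (20.03 ± 8.89 CPM per kilobase), Syt1 (19.4 ± 7.17), Syt7 (17.3 ± 7.18) and Syt9 (16.9 ± 5.18) lay within 1 SD of each other, while Syt2, the fast sensor of the adult hindbrain and muscle synapse, was at 8.85 ± 1.86. Syt3, Syt10 and Syt6 were at 0.919 ± 0.402, 0.880 ± 0.495 and 0.420 ± 0.232 CPM per kilobase. Vamp1, the relative of Vamp2 that replaces it at many motor terminals, was at 1.71 ± 0.437 CPM per kilobase. Snap25, the neuronal partner of Stx1a, was at 22.5 ± 2.69 and its widely expressed relative Snap23 at 5.26 ± 1.08 CPM per kilobase. Rims2, Rims3 and Rims1 were at 7.48 ± 1.97, 6.86 ± 2.01 and 3.29 ± 1.135, and Rims4 was at 0.494 ± 0.117 CPM per kilobase. Cplx3 and Cplx4, the complexins of retinal ribbon synapses, had 15 and 12 counts over all 16 libraries, Syt8 had 22 and Stx19 had 26, and none of these was tested. Vamp7 was listed at 0 in every library, as were the globins Hba-a1, Hba-a2 and Hbb-bt. Exons of 10 members overlap a protein-coding gene on the opposite strand, among them Rab3a, Syn1 and Snap47. The strand setting is not given in the sources used here. Without that setting, it is not known whether reads in such overlaps were told apart.

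**Figure D1:**
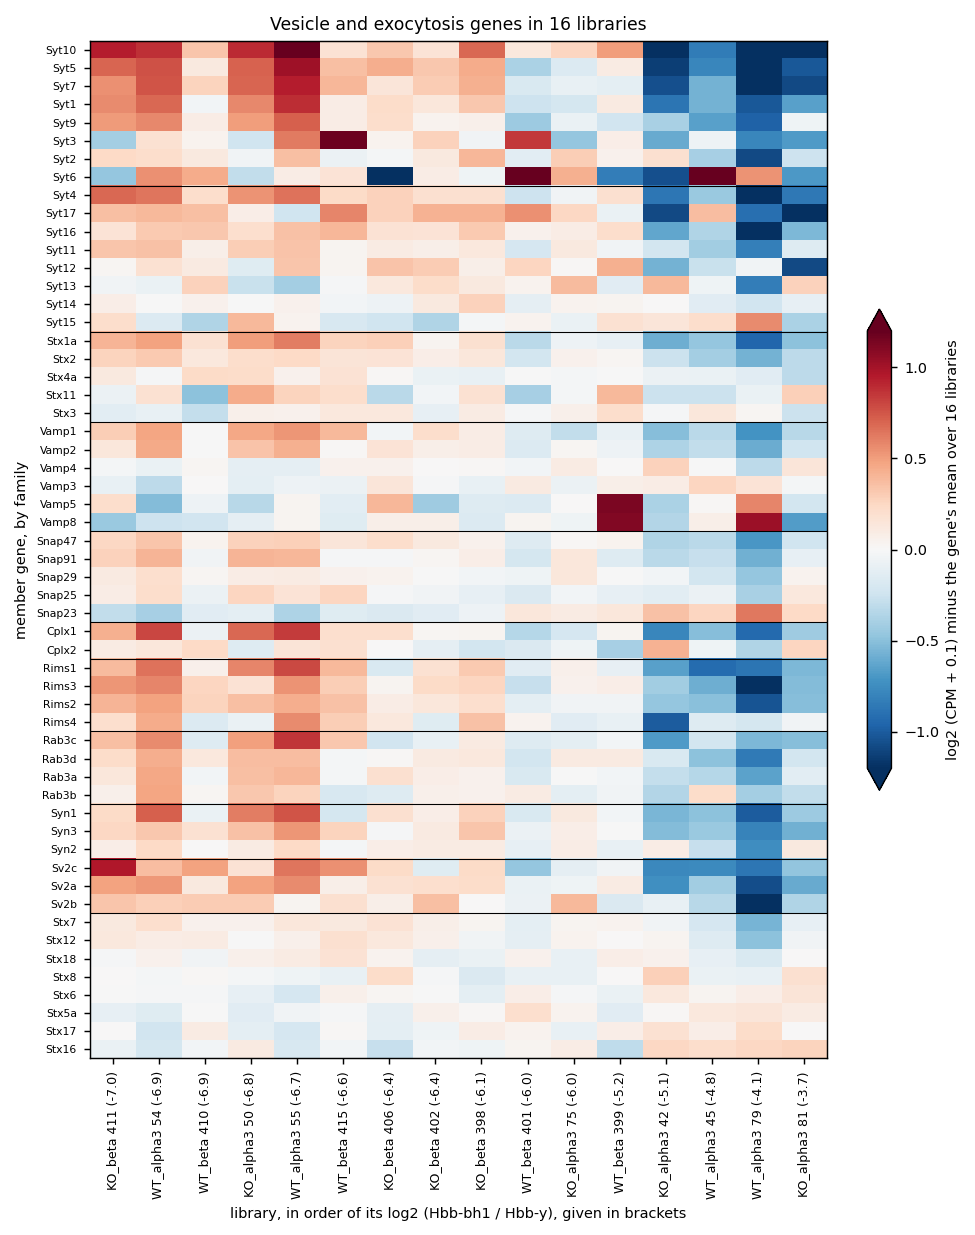
Level of 56 of the 57 tested members (rows, by family) in the 16 libraries (columns, in order of the log2 ratio of Hbb-bh1 to Hbb-y, given in brackets). Colour is log2 (CPM + 0.1) minus the mean of the gene over the libraries, with values past either end of the scale drawn in the end colour. Libraries at the right, with the highest ratio, are blue in most rows for calcium sensors, Rims, Rab3, synapsins and Sv2, and pale in the Golgi and endosome syntaxins.

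The summed level of the members varied widely between libraries of 1 group. It was 4663, 6533, 5584 and 4769 CPM in KO_alpha3 and 4420, 6921, 6958 and 3407 CPM in WT_alpha3, and 5811, 5712, 5825 and 6417 CPM in KO_beta and 5273, 4882, 5700 and 5787 CPM in WT_beta. The ranges of all 4 groups overlap, and both extremes are wild types of the α3 line. WT_alpha3 79 was the lowest library for 36 of the 57 tested members, and WT_alpha3 55 and 54 were the highest for 16 and 11.

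Vesicle and exocytosis genes were lower in libraries with a high Hbb-bh1 to Hbb-y ratio. The slope is the log2 change in level for each doubling of the ratio, fitted by edgeR's quasi-likelihood test beside the 3 groups KO_alpha3, KO_beta and wild type. Of the 57 members, 38 (66.7%) passed an adjusted p of 0.05, 36 with a negative slope and 2 with a positive one. Of all 15641 genes 46.6% passed, 25.8% with a negative and 20.7% with a positive slope. The median slope of the members was -0.24, against -0.0049 over all genes.

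Of the 8 calcium sensors tested, 6 had a passing negative slope. Syt7, a slow, high-affinity sensor that also serves lysosome and peptide release, had the lowest p among them. Syt7 was measured at 56.6, 191, 111 and 55.4 CPM in KO_alpha3 and at 79.5, 198, 226 and 44.6 CPM in WT_alpha3, and at 159, 145, 130.3 and 172 CPM in KO_beta and 108, 104, 141 and 155 CPM in WT_beta. The 4 libraries under 100 CPM were KO_alpha3 42 and 81 and WT_alpha3 45 and 79, those with the highest ratios in the α3 line, and the ranges of the groups overlapped. The slope was -0.61 ± 0.078 (SE, adjusted p = 3.44e-05). Syt1 was measured at 82.3, 226, 131 and 96.3 CPM in KO_alpha3 and at 102, 243, 279.8 and 74.7 CPM in WT_alpha3, and at 189, 166, 177 and 224 CPM in KO_beta and 163, 127, 148 and 161 CPM in WT_beta. Syt1, the fast sensor of most central synapses, was lowest in the same 4 libraries, with a slope of -0.45 ± 0.085 (adjusted p = 0.000644). Syt5 had a slope of -0.62 ± 0.096, Syt9 -0.36 ± 0.077, Syt2 -0.24 ± 0.067 and Syt10 -0.95 ± 0.17. Syt10, a sensor of growth factor vesicles in mouse olfactory neurons, was a low gene here. Syt10 was measured at 0.449, 2.51, 1.59 and 0.171 CPM in KO_alpha3 and at 0.686, 2.49, 3.44 and 0.243 CPM in WT_alpha3, and at 2.169, 1.48, 1.66 and 2.604 CPM in KO_beta and 1.89, 1.44, 1.67 and 1.49 CPM in WT_beta. Its lowest values were again those 4 libraries. Syt3 (-0.29 ± 0.11, adjusted p = 0.0522) and Syt6 (-0.022 ± 0.17, adjusted p = 0.930) did not pass.

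Of the 8 other synaptotagmins tested, 4 passed, all with negative slopes. Syt4, which lacks full calcium binding and sits on peptide vesicles, had -0.50 ± 0.075, Syt17 -0.42 ± 0.11, Syt16 -0.35 ± 0.065 and Syt11 -0.26 ± 0.044. Syt17 missed the threshold without KO_alpha3 81, at -0.29. Syt13 was among the highest members per kilobase and did not pass. Syt13 was measured at 488, 309, 483 and 450.3 CPM in KO_alpha3 and at 359, 352, 281 and 209 CPM in WT_alpha3, and at 404, 434, 407 and 362 CPM in KO_beta and 339.6, 384, 449.6 and 368 CPM in WT_beta. Its slope was -0.059 ± 0.070 (adjusted p = 0.508), and KO_alpha3 42 and 81 were among its higher libraries while WT_alpha3 79 was its lowest. Syt12, Syt14 and Syt15 also missed the threshold.

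**Figure D2:**
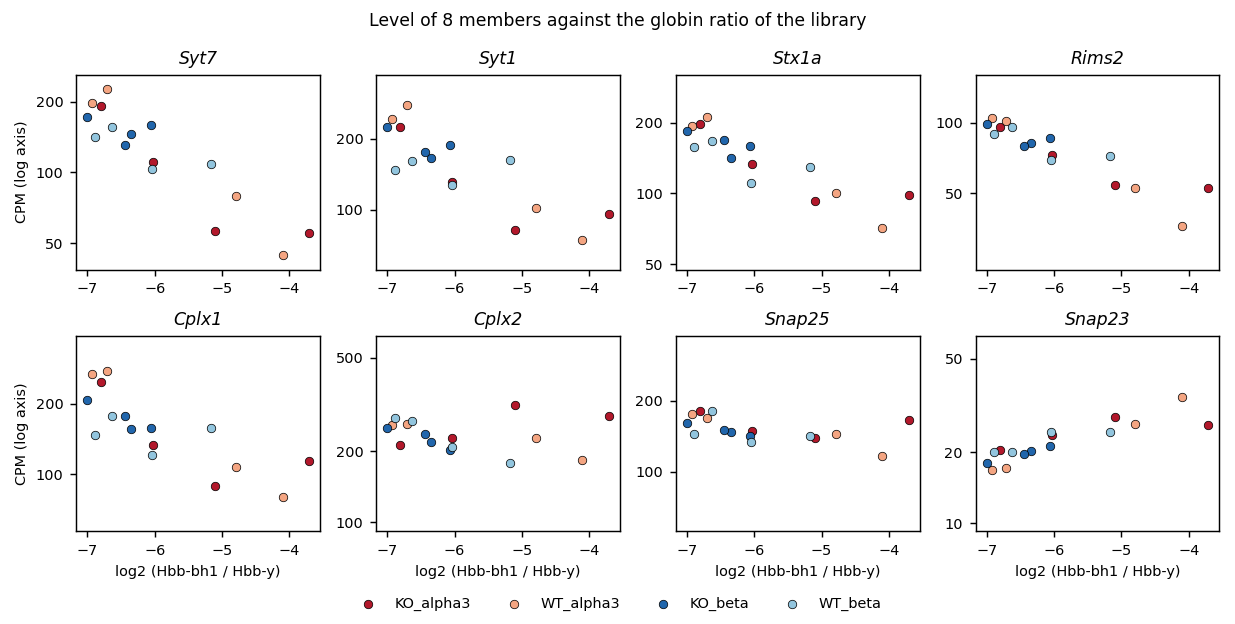
Level of 8 members in CPM (log axis) against the log2 ratio of Hbb-bh1 to Hbb-y, 1 point for each library, coloured by group. Syt7, Syt1, Stx1a, Rims2 and Cplx1 are lower to the right, Cplx2 shows no passing slope, Snap25 has a shallow negative slope, and Snap23 is higher to the right.

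Among the SNAREs the neuronal members had negative slopes and some widely expressed ones did not. Stx1a was measured at 92.6, 197, 133 and 98.6 CPM in KO_alpha3 and at 101, 194, 212 and 71.5 CPM in WT_alpha3, and at 159, 142, 169 and 184 CPM in KO_beta and 129.7, 110.5, 157 and 167 CPM in WT_beta. Stx1a, a plasma membrane syntaxin of neurons, was lowest in WT_alpha3 79 and KO_alpha3 42 and highest in WT_alpha3 55, with a slope of -0.40 ± 0.058 (adjusted p = 9.05e-05). Stx2 (-0.24 ± 0.033) and Stx4a (-0.13 ± 0.025) also passed, while Stx3, a syntaxin of epithelia and ribbon synapses, had -0.0019 ± 0.047 and Stx11, of immune cells, -0.034 ± 0.077. Vamp2 had -0.25 ± 0.046 and Vamp1 -0.31 ± 0.061. Vamp3, which serves recycling endosomes in most cells, went the other way, with 0.078 ± 0.030 (adjusted p = 0.0441). Vamp3 missed the threshold with limma-voom, with a Y-linked covariate, with 4 groups or no group terms in the fit, and when WT_alpha3 45, 54, 55 or 79 or WT_beta 415 was left out, and its slope ranged from 0.057 to 0.13 over the left-out libraries. Vamp8 (0.20 ± 0.10), Vamp5 (0.18 ± 0.11) and Vamp4 (-0.011 ± 0.030) did not pass.

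Snap25 and Snap23 took opposite directions. Snap25 was measured at 139, 181, 149 and 166 CPM in KO_alpha3 and at 145, 176, 169.9 and 116 CPM in WT_alpha3, and at 142, 147, 150.3 and 162 CPM in KO_beta and 141, 134, 144 and 181 CPM in WT_beta. The values span less than those of Stx1a, with WT_alpha3 79 lowest, and the slope was -0.12 ± 0.038 (adjusted p = 0.0188). Snap23 was measured at 28.3, 20.4, 23.7 and 26.1 CPM in KO_alpha3 and at 26.5, 16.7, 17.1 and 34.3 CPM in WT_alpha3, and at 21.3, 20.2, 19.6 and 18.04 CPM in KO_beta and 24.4, 24.3, 20.1 and 20.01 CPM in WT_beta. Here WT_alpha3 79 was highest and WT_alpha3 54 lowest, with a slope of 0.22 ± 0.039 (adjusted p = 0.000359). Snap47, a SNARE without a membrane anchor, had -0.24 ± 0.041 and Snap29, which serves several fusion steps inside the cell, -0.13 ± 0.027. Snap91 is the clathrin adaptor AP180 and no SNARE, and had -0.24 ± 0.047.

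The complexins differed as a pair. Cplx1 was measured at 89.7, 248, 134 and 115 CPM in KO_alpha3 and at 108, 268, 276 and 80.6 CPM in WT_alpha3, and at 157, 156, 178 and 207 CPM in KO_beta and 158, 121, 147 and 177 CPM in WT_beta. Cplx1 was lowest in WT_alpha3 79 and KO_alpha3 42, and its slope was -0.43 ± 0.087 (adjusted p = 0.000976). Cplx2 was measured at 315, 212, 228 and 282 CPM in KO_alpha3 and at 228, 259, 261 and 183 CPM in WT_alpha3, and at 203, 219, 236 and 252 CPM in KO_beta and 179, 208, 277 and 269 CPM in WT_beta. Cplx2 was highest in KO_alpha3 42, a library where Cplx1 was low, and its slope was -0.079 ± 0.057 (adjusted p = 0.268). The difference between these slopes was not tested.

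Active zone and vesicle proteins also had negative slopes. Rims2, which tethers Rab3 vesicles to calcium channels, had the lowest p of all members. Rims2 was measured at 54.0, 95.8, 72.5 and 52.6 CPM in KO_alpha3 and at 52.6, 104, 101 and 36.3 CPM in WT_alpha3, and at 85.9, 82.1, 79.4 and 99.0 CPM in KO_beta and 72.4, 69.0, 89.8 and 95.7 CPM in WT_beta. The same 4 libraries of the α3 line were under 60 CPM and all others above, with a slope of -0.39 ± 0.047 (adjusted p = 2.35e-05). Rims1 (-0.46 ± 0.078) and Rims3 (-0.41 ± 0.065) passed and the low Rims4 (-0.14 ± 0.087) did not. All 4 Rab3 genes passed, with Rab3c at -0.34 ± 0.074, Rab3d at -0.28 ± 0.050, Rab3a at -0.23 ± 0.050 and Rab3b at -0.16 ± 0.053. All 3 synapsins, which tether vesicles to each other and to actin, passed. Syn1 was measured at 138, 309.8, 219 and 149 CPM in KO_alpha3 and at 144, 331, 340.5 and 101 CPM in WT_alpha3, and at 245, 214, 231 and 237 CPM in KO_beta and 198, 178, 191 and 175 CPM in WT_beta. Syn1 was lowest in WT_alpha3 79 and KO_alpha3 42, with -0.40 ± 0.080, while Syn3 had -0.35 ± 0.048 and Syn2 -0.16 ± 0.043. The vesicle glycoproteins Sv2c, Sv2a and Sv2b had -0.42 ± 0.082, -0.40 ± 0.062 and -0.35 ± 0.048. Within this set Syn2 and Rab3b had the shallowest passing slopes.

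Of the 8 syntaxins of Golgi and endosomes, 2 passed, the endosomal Stx7 (-0.15 ± 0.031) and Stx12 (-0.12 ± 0.029). That is near the 25.8% of all genes with a passing negative slope. Stx5a, Stx6, Stx8, Stx16, Stx17 and Stx18 ranged from -0.057 to 0.079 and did not pass. The median slope was -0.40 for the 8 calcium sensors, -0.22 for the other synaptotagmins, -0.18 for the plasma membrane syntaxins and 0.023 for the Golgi and endosome syntaxins. It was -0.40 for the Rims, -0.26 for Rab3, -0.35 for the synapsins and -0.40 for Sv2.

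**Figure D3:**
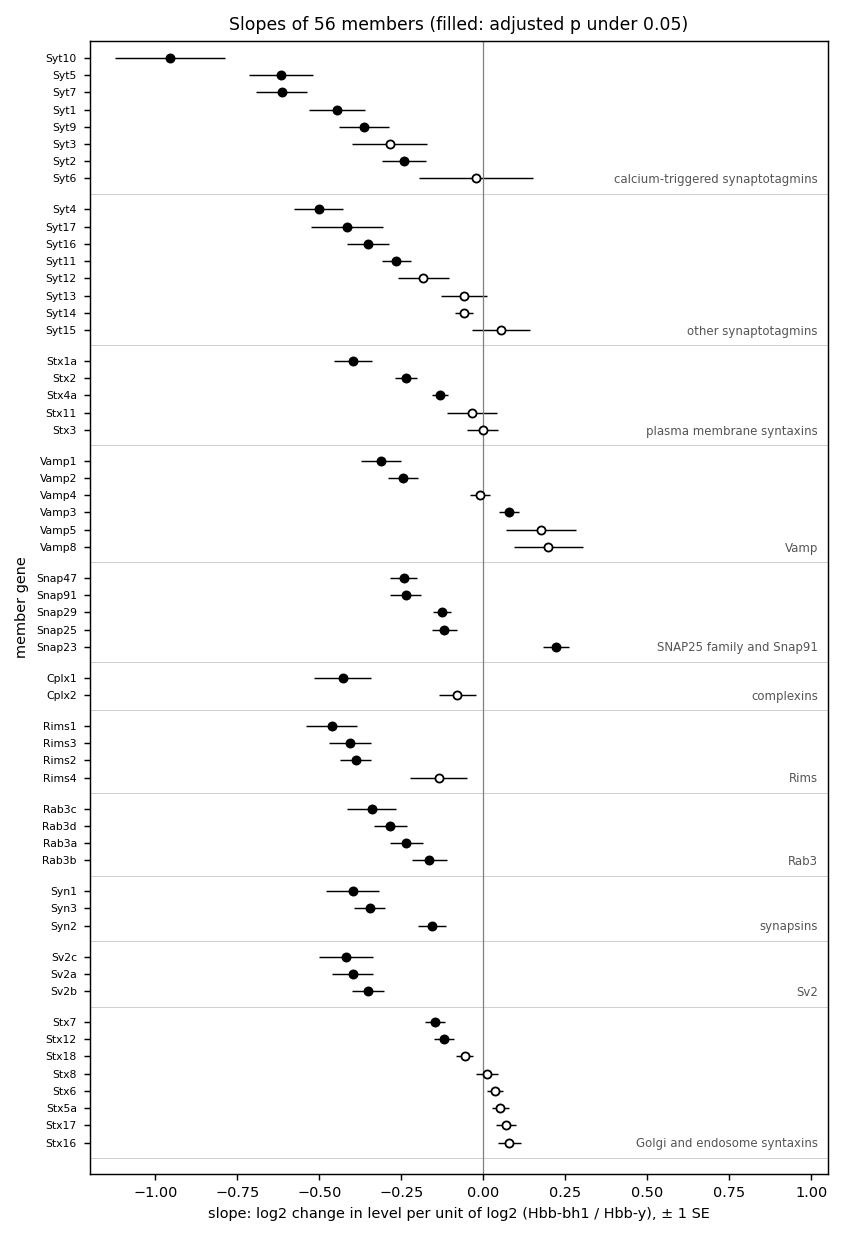
Slope of 56 of the 57 tested members, as log2 change per unit of log2 (Hbb-bh1 / Hbb-y), with bars of 1 SE, by family. Filled points passed an adjusted p of 0.05: 35 lie left of 0, and Snap23 and Vamp3 lie right of it.

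Other genes of the release cycle had the same prevailing sign. Over all genes 25.8% had a passing negative slope and 20.7% a positive one. Of 18 vesicle membrane proteins and transporters tested, 10 had a passing negative slope and 4 a positive one. Scamp5 had -0.29 ± 0.041, Syngr3 -0.47 ± 0.072, Syngr1 -0.44 ± 0.070 and Scamp1 -0.26 ± 0.046. Of 36 docking, priming and active zone genes, 22 were negative and 3 positive, with Erc2 at -0.36 ± 0.054, Ppfia2 at -0.40 ± 0.061, Rph3a, a Rab3 effector, at -0.98 ± 0.15 and Ppfia3 at -0.25 ± 0.040. Of 19 genes for SNARE disassembly and vesicle recycling, 10 were negative and 2 positive, with Amph at -0.30 ± 0.044, Napb, a cofactor in SNARE disassembly, at -0.28 ± 0.047, Napg at -0.18 ± 0.032 and Sh3gl2 at -0.29 ± 0.054. Over the 73 different genes tested in these lists the median slope was -0.15.

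Markers of other cell states moved with the ratio as well. All 12 neurogenic progenitor genes and all 20 cell cycle genes had passing positive slopes, with medians of 0.73 and 0.56. Of 23 sensory neuron markers, 12 had a negative and 4 a positive passing slope, with a median of -0.10. The progenitor genes summed to 298 to 1253 CPM in KO_alpha3 and 279 to 935 CPM in WT_alpha3, and to 295 to 408 CPM in KO_beta and 340.2 to 493 CPM in WT_beta. The sensory neuron markers summed to 17414 to 21530 CPM in KO_alpha3 and 11700 to 22408 CPM in WT_alpha3, and to 19382 to 21540 CPM in KO_beta and 15688 to 19311 CPM in WT_beta. Of 12 glia and Schwann precursor markers, 6 had a negative and 1 a positive passing slope, and 4 of 7 erythroid markers had a positive one. The erythroid list holds Hbb-bh1 and Hbb-y, the genes of the ratio itself, so its count is partly fixed by the measure. Spinal cord markers had 5 of 18 and sympathetic markers 5 of 11 passing positive slopes, with 1 sympathetic marker negative, against 20.7% positive over all genes, while none of 11 liver and 10 macrophage markers passed. Apart from the erythroid Hba-a1, Hba-a2 and Hbb-bt, no marker of these lists was at 0 in all libraries. With the mean log2 CPM of the sensory neuron markers as a covariate, 2 members passed, Rims2 (-0.17 ± 0.038) and Stx4a (-0.19 ± 0.040, SE), both negative, of 504 genes in all, and the slope of Vamp3 turned to -0.021. The other marker lists' part in the slopes was not tested.

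The count of passing slopes changed with the libraries left out. Without KO_alpha3 42 and 81 and WT_alpha3 45 and 79, the libraries highest in the progenitor genes and left out after the data were seen, 1414 genes passed in all. Among them were 5 members, 3 of which also passed in the full set. These were Rims2 (-0.31 ± 0.070), Cplx2 (-0.30 ± 0.062) and Syt9 (-0.49 ± 0.13) with negative slopes, and Snap23 (0.28 ± 0.067) and Vamp8 (0.63 ± 0.11) with positive ones, and the median of the members was -0.17. These 4 libraries also have the highest globin ratios of the 16, so the ratios left span only -7.00 to -5.17. Without the 2 libraries farthest from the median ratio, KO_alpha3 81 and WT_alpha3 79, 34 members passed. Without WT_alpha3 79 alone 32 members passed, and 5799 genes in all. Without WT_beta 399 alone, at a log2 ratio of -5.17, 7640 genes passed, against 7283 in the full fit. Without WT_alpha3 45 and 79 and WT_beta 399 and 401, which are high in markers of other tissues, 20 members passed, all negative and all among the 38. Of all genes 3655 passed there. With a Y-linked covariate 38 members passed, and among the 8 wild types alone 37 of 56 tested passed. In the full fit 46.6% of all genes passed. For the fits with 34, 38 and 37 members that share is not given, so these counts alone do not set the members apart.

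The slopes were also fitted apart in each line, in a test added after the data were seen. In the α3 line 41 members passed, 37 with a negative and 4 with a positive slope, while 48.3% of all genes passed. In the β1 line 0 of 57 members passed, 6 had an unadjusted p under 0.05 and 47 had a negative slope, while 2.65% of all 15641 genes passed and 2360 had an unadjusted p under 0.05. The median slope was -0.27 in the α3 line and -0.079 in the β1 line. The difference between the lines passed for 1 member, with 17 at an unadjusted p under 0.05, while 0.895% of all genes passed and 2828 had an unadjusted p under 0.05. That member was Syt10, with -1.25 ± 0.12 in the α3 line and -0.021 ± 0.22 in the β1 line (SE), a difference of -1.22 ± 0.25 (adjusted p = 0.0470). Syt7 had -0.69 ± 0.074 in the α3 line and -0.29 ± 0.16 in the β1 line, and Rims2 -0.41 ± 0.051 in the α3 line and -0.26 ± 0.11 in the β1 line. Cplx2 had -0.023 ± 0.052 in the α3 line and -0.40 ± 0.12 in the β1 line. These differences did not pass. A fit on the 8 libraries of the β1 line alone called 2 members, Cplx2 (-0.37 ± 0.055) and Vamp8 (0.72 ± 0.13), and neither was among the 38. The libraries of the α3 line spanned -6.93 to -3.71 in log2 ratio and those of the β1 line -7.00 to -5.17.

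**Figure D4:**
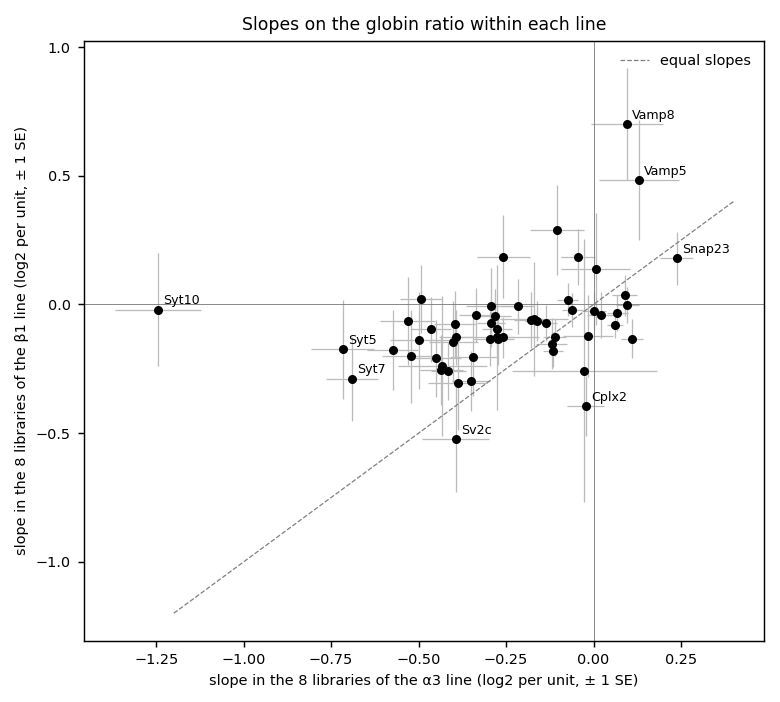
Slope of 56 of the 57 tested members within the 8 libraries of the β1 line (vertical axis) against that within the 8 libraries of the α3 line (horizontal axis), in log2 per unit of log2 (Hbb-bh1 / Hbb-y), with bars of 1 SE. The dashed line marks equal slopes, and Syt10 lies farthest from it, with -1.25 in the α3 line and -0.021 in the β1 line.

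Loss of importin α3 gave no member that passed. In KO_alpha3 against the 8 wild types edgeR called 0 of 57 members, as did DESeq2 and limma-voom, with 5 at an unadjusted p under 0.05, and it called 1 of 15641 genes (0.00639%), with 1696 at an unadjusted p under 0.05. For 0 of 57 members did the KO_alpha3 libraries lie wholly apart from the wild types, against 0.665% of all genes. The median log2 difference was -0.063 for the members and -0.0059 for all genes. It was 0.024 with the globin ratio as a covariate and -0.23 without the 4 libraries high in markers of other tissues, and leaving out 1 library it ranged from -0.17 without KO_alpha3 50 to -0.010 without KO_alpha3 42.

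The lowest p belonged to 3 low synaptotagmins and 2 endosomal Vamps. Syt3 was measured at 1.71, 2.25, 1.90 and 1.63 CPM in KO_alpha3 and at 2.54, 3.04, 4.15 and 1.51 CPM in WT_alpha3, and at 2.58, 3.25, 2.75 and 1.98 CPM in KO_beta and 2.82, 4.87, 2.75 and 6.14 CPM in WT_beta. All KO_alpha3 values of Syt3, a calcium sensor of receptor recycling, lay within the range of the wild types, with a log2 difference of -0.90 ± 0.30 (adjusted p = 0.355). Syt12, which binds no calcium, averaged 1.59 ± 0.527 CPM in KO_alpha3 and 2.33 ± 0.363 CPM in the 8 wild types (SD), a difference of -0.56 ± 0.20 (adjusted p = 0.378). Syt6 averaged 1.72 ± 0.848 CPM in KO_alpha3 and 3.21 ± 1.43 CPM in the wild types (-0.91 ± 0.41, adjusted p = 0.447). Vamp8, an endosome and secretory granule SNARE, averaged 9.23 ± 1.73 CPM in KO_alpha3 and 13.9 ± 6.09 CPM in the wild types (-0.59 ± 0.27, adjusted p = 0.451). The wild-type spread of Vamp8 came from WT_alpha3 79 at 22.9 CPM and WT_beta 399 at 24.3 CPM, against 9.40 to 11.7 CPM in the other 6. Vamp4, of the trans-Golgi network, averaged 27.4 ± 2.94 CPM in KO_alpha3 and 24.5 ± 1.88 CPM in the wild types (0.15 ± 0.069, adjusted p = 0.452). In this comparison all 18 spinal cord, 11 sympathetic, 17 skeletal muscle, 9 epidermis, 11 liver, 10 macrophage and 7 erythroid markers tested had negative differences, none of which passed. Progenitor markers had 11 positive and 1 negative difference (median 0.61), and glia and Schwann precursor markers 8 and 4. Sensory neuron markers had 14 positive and 9 negative differences and cell cycle markers 9 and 11, with none passing in these lists either. In edgeR 14 spinal cord, 4 sympathetic, 16 skeletal muscle, 9 epidermis, 10 liver, 6 macrophage and 0 erythroid markers had an unadjusted p under 0.05. So did 1 progenitor, 4 glia, 8 sensory neuron and 0 cell cycle markers. Over all 15641 genes 1696 did. The liver markers summed to 43.5 to 139 CPM in KO_alpha3, to 4843 CPM in WT_beta 399 and to 40.9 to 396 CPM in the other wild types. The spinal cord markers summed to 6.83 to 16.4 CPM in KO_alpha3 and 10.3 to 128 CPM in the wild types, and the part of these markers in the differences of members was not tested.

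**Figure D5:**
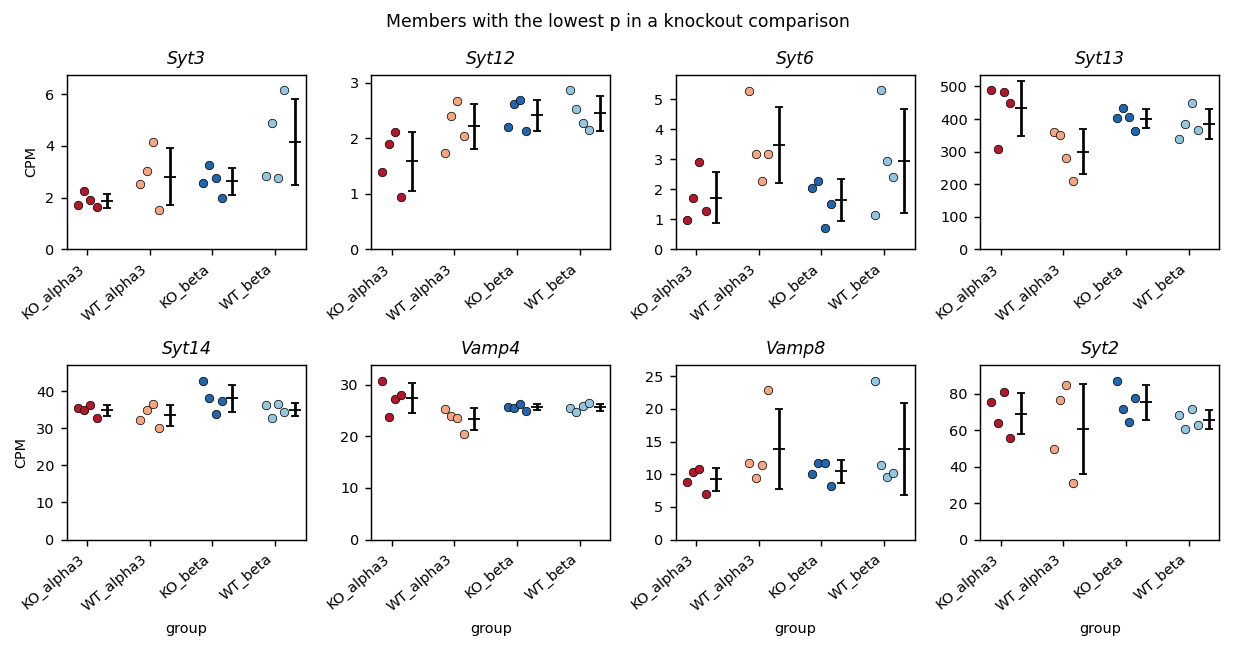
Level in CPM of the 8 members with the lowest p in a knockout comparison, 1 point for each library, by group, with the mean and SD at the right of each group (n = 4). Knockout and wild-type points overlap in all 8 panels, and the high wild-type points of Vamp8 are WT_alpha3 79 and WT_beta 399.

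Loss of the importin β1 3′ UTR gave no passing member either. In KO_beta against the 8 wild types edgeR called 0 of 57 members, as did DESeq2 and limma-voom, with 2 at an unadjusted p under 0.05, and it called 0% of all genes, of which 349 had an unadjusted p under 0.05. No member had KO_beta libraries wholly apart from the wild types, against 0.147% of all genes. The median log2 difference of the members was 0.12, against -0.0026 for all genes, and 39 of 57 were positive. It was -0.11 without the 4 libraries high in markers of other tissues, 0.010 with the globin ratio as a covariate and -0.084 with the sensory neuron mean. Syt14 averaged 38.0 ± 3.69 CPM in KO_beta and 34.2 ± 2.33 CPM over the wild types (0.16 ± 0.069, adjusted p = 0.932). Syt6 was 2.06, 2.28, 0.710 and 1.52 CPM in KO_beta and 3.21 ± 1.43 CPM (SD, n = 8) over the wild types (-0.95 ± 0.41, adjusted p = 0.932). Syt6 was thus lower on average than the wild types in both knockouts, without passing in either, and the 8 wild types are shared by these comparisons. Syt13 differed by 0.24 ± 0.15, Vamp8 by -0.40 ± 0.27 and Syt2 by 0.27 ± 0.20, each with an adjusted p of 0.932. Leaving out 1 library, Syt14 was 0.080 without KO_beta 398, Syt13 0.15 and Syt2 0.15 without WT_alpha3 79, and Vamp8 -0.25 without WT_beta 399. The median of the members was 0.033 without WT_alpha3 79 and 0.18 without WT_alpha3 55. In KO_beta all 20 cell cycle and 12 progenitor markers had negative differences, with medians of -0.61 and -0.78. So had all 18 spinal cord markers (median -1.52), 17 skeletal muscle markers (-0.65), 11 liver markers (-1.86), 10 macrophage markers (-0.22) and 7 erythroid markers (-0.98), and 10 of 11 sympathetic markers (-2.65). None of these passed. Among the wild types, the liver markers summed to 4843 CPM in WT_beta 399 and to 40.9 to 396 CPM in the others. In edgeR 6 spinal cord, 2 sympathetic, 2 cell cycle and 1 progenitor marker had an unadjusted p under 0.05. The part of these markers in the differences of members was not tested.

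Between the wild types of the lines, which also differ in Y-linked reads, no member passed. In WT_alpha3 against WT_beta edgeR called 0 of 57 members, as did DESeq2 and limma-voom, with 0 at an unadjusted p under 0.05. Of all genes it called 0.0192%, 0.00639% higher and 0.0128% lower in WT_alpha3, with 824 at an unadjusted p under 0.05. The member with the lowest p was Syt13, at 300.4 ± 70.1 CPM in WT_alpha3 and 385 ± 46.7 CPM in WT_beta (-0.34 ± 0.16, adjusted p = 0.974). Syt3, Vamp4, Syt15 and Rab3b followed, with differences of -0.54 ± 0.31, -0.11 ± 0.078, 0.30 ± 0.23 and 0.22 ± 0.17. Without WT_alpha3 79, Syt13 was -0.21, Vamp4 -0.065 and Syt15 0.12, while Syt3 was -0.30 without WT_beta 415 and Rab3b 0.11 without WT_alpha3 54. The median of the members was 0.0096 and ranged from -0.13 without WT_alpha3 55 to 0.10 without WT_alpha3 79. All 12 progenitor markers (median 0.69), 20 cell cycle markers (0.32) and 7 erythroid markers (1.06) were higher on average in WT_alpha3, and all 11 liver markers (-3.03) and 17 skeletal muscle markers (-0.56) lower. None of these passed. The liver markers summed to 4843 CPM in WT_beta 399, to 40.9 to 351 CPM in the other WT_beta libraries and to 104 to 396 CPM in WT_alpha3. Skeletal muscle markers summed to 1252 CPM in WT_beta 401, to 202 to 445 CPM in the other WT_beta libraries and to 116 to 608 CPM in WT_alpha3. In edgeR 6 liver, 3 erythroid and 1 progenitor marker had an unadjusted p under 0.05. The part of these markers was not tested. The SD of the summed members was 1795 CPM in WT_alpha3 and 418 CPM in WT_beta, the larger spread being that of the α3 line.

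For the difference between the knockout effects, each against the wild types of its own line, no member passed. edgeR called 0 of 57 members, as did DESeq2 and limma-voom, with 0 at an unadjusted p under 0.05, and 0.00639% of all genes, with 191 at an unadjusted p under 0.05. The median difference (KO_alpha3 effect minus KO_beta effect) was -0.19 for the members and -0.026 for all genes. Rims4 had -0.65 ± 0.35 (adjusted p = 0.996), Syt13 0.42 ± 0.23, Vamp4 0.18 ± 0.11, Syt12 -0.50 ± 0.33 and Syt1 -0.76 ± 0.54. The value of Rims4 rests partly on KO_alpha3 42, at 1.142 CPM against 2.16 to 2.31 CPM in the other 3, and was -0.43 without it. Syt1 was -0.41 without WT_alpha3 55 and Syt12 was -0.28 without KO_alpha3 81, and the median of the members was -0.042 without WT_alpha3 55. In this difference all 11 liver markers (median 1.28) and 12 progenitor markers (0.64) were positive and all 9 epidermis (-1.33) and 7 erythroid markers (-1.85) negative, none passing. The liver value includes WT_beta 399, where the liver markers summed to 4843 CPM, against 40.9 to 351 CPM in the other WT_beta libraries. In edgeR 4 epidermis markers had an unadjusted p under 0.05. The part of these markers was not tested.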

How the data were processed

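Polyadenylated RNA of lumbar DRG was sequenced, and the authors deposited a table of whole-number read counts per gene symbol for 16 libraries. Per the submitters' processing notes TopHat2 2.0.10, HTSeq 0.6.1p1, cutadapt, bcl2fastq 2.17.1.14 and DESeq2 1.6.3 were used, with the mouse build mm10. For their settings and the annotation, the sources used here give nothing. A deposited normalized table, equal to the counts times a constant for each library, was not used. Column names placed each library in its group. Per the series' own design note, the 8 wild types serve both knockouts.

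Genes were filtered with filterByExpr (count minimum 10, total minimum 15), scaled with TMM and tested with edgeR 4.0.16 (quasi-likelihood) in R 4.3.3, with Benjamini-Hochberg adjustment over all 15641 genes and a threshold of 0.05. Knockouts and slopes were fitted with 3 groups (KO_alpha3, KO_beta, wild types), and the comparison of the wild types and the difference of knockout effects with 4. DESeq2 1.42.0, limma 3.58.1 (voom), other scalings, filters, covariates and left-out libraries were alternatives. The method was tested on simulated counts. No libraries looked like duplicates: chi-square per degree of freedom between pairs of 1 group was at least 6.30. Depth limits the low members most, since 8 tested ones averaged under 10 CPM.

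The members and all gene lists were chosen with earlier results of these data known. Named members are the 5 with the lowest p in each group comparison and, for the slope, the called members with the most positive and up to 12 with the most negative values. Slopes of other members describe each family, and were picked with their values seen. Of the tested members, 1 is counted in the totals but not reported by name or drawn here.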

Additional observations from a re-analysis of the deposited data

Results flagged for a closer look

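For 5 of 100 combinations of member and group (25 members in 4 groups), 1 library stood far from the other 3 by Dixon's criterion, and chance gives about 5%. Rab3b, a Rab3 of secretory cells, was at 22.96 CPM in KO_beta 406, against 26.6 to 26.7 CPM in the other KO_beta libraries. Rims4 was at 1.142 CPM in KO_alpha3 42, below the other KO_alpha3 libraries. Sv2a was at 144 CPM and Syt4 at 257 CPM in KO_beta 411, above the other KO_beta libraries, and KO_beta 411 has the lowest globin ratio of all libraries. Syt4 was at 133.6 CPM in WT_beta 401, below the other WT_beta libraries.

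The slope of Syt10 on the globin ratio differed between the lines by -1.22 (α3 line minus β1 line), by edgeR's test of that difference. It was the only member of 57 for which the difference passed, at a level of 0.171 to 3.44 CPM, and the ratio spans less in the β1 line.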

How the results depend on the processing

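No member was called in any of the 4 group comparisons under any alternative run. Of all genes, KO_alpha3 against the wild types called 1, and 128 with DESeq2, 2 with the sensory neuron mean as a covariate, and 1 to 124 leaving out 1 library, the highest without KO_alpha3 50. KO_beta called 0, 1 with DESeq2, and 0 leaving out any library. WT_alpha3 against WT_beta called 3, and 32 with DESeq2, 5 with the Y-linked covariate, 5 with the globin ratio as a covariate and 2 to 7 leaving out 1 library. The difference of knockout effects called 1, and 2 with no filter beyond 1 count, 6 with DESeq2, 2 without the 4 libraries high in markers of other tissues and 1 to 3 leaving out 1 library.

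For the slope, members called and all genes called were 38 and 7283. They were 20 and 3655 without those 4 libraries, 2 and 504 with the sensory neuron mean as a covariate, and 2 and 693 in the β1 line alone. Without the 4 libraries highest in progenitor genes, chosen after seeing the data, they were 5 and 1414. Leaving out 1 library gave 32 to 41 and 5799 to 7640. The other release-cycle genes called, 51 in all, became 18, 0, 3 and 5 under those 4 settings in the same order. DESeq2 called 41 members and limma-voom 37. The share of all genes is not given for these runs, so their counts alone do not set the members apart.

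The sign turned in these cases. Without the 4 libraries high in markers of other tissues, Vamp8 in KO_beta was 0.041. With the Y-linked covariate, WT_alpha3 against WT_beta gave 0.041 for Vamp4, -0.036 for Syt15 and -0.20 for Rab3b, and the difference of effects gave -0.048 for Vamp4, 0.60 for Syt12 and 0.61 for Syt1. With that covariate the median of the members was -0.39 between the wild types and 0.44 for the difference of effects, and Y-linked reads and wild-type line cannot be told apart. Of the 4 groups only KO_alpha3 mixes libraries with and without a high Y-linked sum. There 42 and 81, with the low sums, had log2 globin ratios of -5.10 and -3.71, and 50 and 75 had -6.81 and -6.03. Within that group Y-linked reads and the globin ratio cannot be told apart either. The slope of Vamp3 was -0.021 with the sensory neuron mean as a covariate, and in the β1 line alone Syt10 had 6.44e-05 and Syn1 0.043. The cause was not tested.

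No paired analysis was run. Library numbers are not shared between groups and the labels name no litters, so whether libraries of different groups share a litter is not known. The planned ratio of Hba-x to Hba-a1 plus Hba-a2 was not run, since both Hba-a1 and Hba-a2 were listed at 0.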

Other observations

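Some release-cycle genes had passing positive slopes on the globin ratio, against the prevailing sign, and were picked after their values were seen. They were 9 of the 73 tested, while 20.7% of all genes had a passing positive slope. Among vesicle proteins these were the monoamine transporters Slc18a1 (0.96 ± 0.28, SE) and Slc18a2 (0.29 ± 0.094), the acetylcholine transporter Slc18a3 (0.88 ± 0.31) and Syngr2 (0.16 ± 0.059), a synaptogyrin of non-neuronal cells. Slc18a1 and Slc18a3 averaged 1.51 and 1.99 CPM. Monoamine transporters also belong to sympathetic neurons, whose 11 markers summed to 163 to 361 CPM in KO_alpha3 and 233 to 745 CPM in WT_alpha3, and to 261 to 353 CPM in KO_beta and 242.5 to 496 CPM in WT_beta. Slc18a1 is itself among these 11 markers, and Slc18a3 is among the spinal cord markers. The part of sympathetic and spinal cord tissue in these slopes was not tested.

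Among docking genes the positive ones were Stxbp2 (0.24 ± 0.060), a partner of syntaxins in epithelial and immune cells, Rab27a (0.54 ± 0.13), which serves granules and melanosomes, and Rab3il1 (0.22 ± 0.068), an exchange factor. Among recycling genes they were Dnm2 (0.079 ± 0.019), the widely expressed dynamin, and Ston2 (0.18 ± 0.046).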
